A study of Mus musculus with 4 samples.

Results

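The Hox cluster genes of mouse haematopoietic progenitors were described across loss of Aspp1, of p53 and of both. Members were taken by name, as every gene of the array called Hoxa, Hoxb, Hoxc or Hoxd with a number, which gave 39 genes among 34786 genes and transcripts on 55675 probes. No measured value entered that choice. The members described are 38 of these genes, on 42 probes, and every count of Hox genes is over them. HoxA contributed 10 genes, HoxB 10, HoxC 9 and HoxD 9.

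RNA came from LSK cells (lineage-negative, Sca-1-positive, cKit-positive), the marrow fraction that holds stem cells and multipotent progenitors, of 12-week-old male C57BL/6 mice of 4 genotypes. WT mice and Aspp1-/- mice carried no labelled Cre, whereas the p53-/- mice were Mx1-Cre(+)p53flox/flox and the Aspp1-/-p53-/- mice Mx1-Cre(+)Aspp1-/-p53flox/flox. Mx1-Cre is driven by an interferon-responsive promoter, so deletion depends on the double-stranded RNA analogue pIpC and is not restricted to blood cells. Every genotype, WT included, received 5 intraperitoneal doses of pIpC at 8 weeks, and cells were taken 4 weeks later. The series design gives 400 µg per dose, while the sample labels read 400, 401, 402 and 403 µg for WT, Aspp1-/-, p53-/- and Aspp1-/-p53-/-. Each genotype was 1 Agilent array hybridised with RNA pooled from 3 mice, so the spread between mice is unknown and no comparison of 2 arrays carries a test. Values listed without a label follow the order WT, Aspp1-/-, p53-/- and Aspp1-/-p53-/-.

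Hox genes encode homeodomain transcription factors that give cells along the body axis their positional identity. They lie in 4 clusters, HoxA to HoxD, and are numbered by paralogue position, with low numbers at the 3′ end, which is opened first and expressed most anteriorly in the embryo. In marrow, HoxA and HoxB genes of the middle positions are active in stem and progenitor cells and are shut down as these mature. Their proteins bind DNA with TALE cofactors such as Meis1, MLL-menin complexes keep their loci active and Polycomb complexes keep them silent.

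The labels were checked first. Ppp1r13b, which encodes Aspp1, had a processed signal of 13182, 2247, 12759 and 2060, and Trp53, which encodes p53, had 730, 820, 164 and 169. Both were lower on the arrays labelled as lacking them, by 2.61 (log2) for Ppp1r13b in Aspp1-/- against WT and by 2.19 for Trp53 in p53-/- against WT. Where these probes lie relative to the deleted exons was not analysed here. All 12 LSK markers listed (Kit, Cd34 and Flt3 among them) were well above background on all 4 arrays. WT and Aspp1-/- lay in row 1 of the slide, and both arrays without p53 lay in row 2, so p53 loss, Mx1-Cre and slide row cannot be told apart. The 75th percentile of the processed signal was 502, 523, 512 and 469, and each array was scaled by it before differences were taken.

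A gene was counted as detected where the scanner software flagged at least 1 of its probes as well above background. By this flag LSK cells carried transcripts of 14 of the 38 Hox genes (36.8%) on all 4 arrays, against 13431 of 22221 named genes (60.4%). A further 3 Hox genes were detected on 1 to 3 arrays and 21 on none. Detection followed the cluster: 8 of 10 HoxA genes, 5 of 10 HoxB genes, 1 of 9 HoxC genes and 0 of 9 HoxD genes were detected on every array. It also followed the position, with 4 of 7 genes at positions 1 to 3, 8 of 15 at positions 4 to 8 and 2 of 16 at positions 9 to 13. Those 2 were Hoxa9 and Hoxa10. Position and cluster overlap, as HoxC and HoxD hold most genes at positions 9 to 13 and were mostly undetected at lower positions too. Numbers of detected members per array were 15, 14, 14 and 17, while all named genes detected numbered 14400, 14304, 14076 and 13880. The Aspp1-/-p53-/- array thus had the most Hox genes and the fewest named genes.

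**Figure D1:**
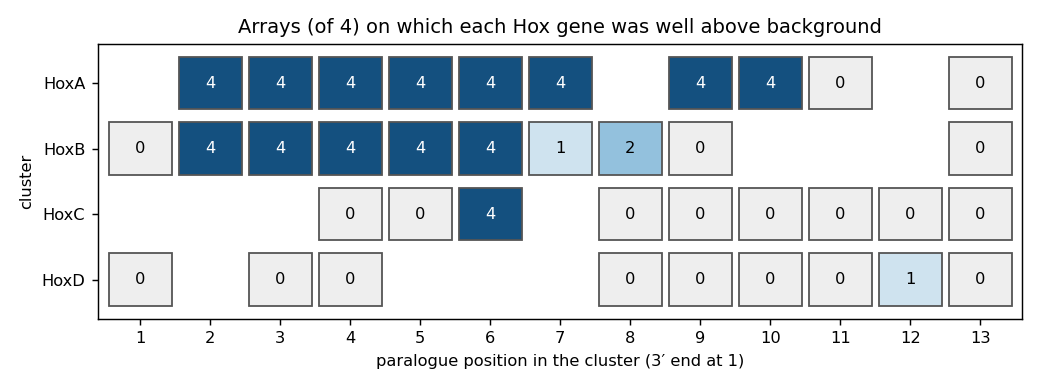
Each square is 1 of the 38 Hox genes described, placed by cluster (rows) and paralogue position (columns, with 1 at the 3′ end), and the number and shade give on how many of the 4 arrays it was well above background. Detection on all 4 arrays covers HoxA at positions 2 to 7, 9 and 10, HoxB from 2 to 6 and HoxC only at 6, and Hoxd12 is the 1 HoxD gene with any detection.

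Genes not well above background on any array were Hoxa11 and Hoxa13 in HoxA and Hoxb1, Hoxb9 and Hoxb13 in HoxB. In HoxC they were Hoxc4, Hoxc5, Hoxc8, Hoxc9, Hoxc10, Hoxc11, Hoxc12 and Hoxc13, and in HoxD they were Hoxd1, Hoxd3, Hoxd4, Hoxd8, Hoxd9, Hoxd10, Hoxd11 and Hoxd13. Those at positions 9 to 13 are known for patterning the limbs, the lower trunk and the genital tract. Their signals ran from 3.89 for Hoxc4 on the WT array to 26.4 for 1 Hoxa13 probe on the p53-/- array, near the lowest signals flagged as well above background (18.5, 20.2, 24.9 and 23.6). At this sensitivity their transcripts were not detectable, which does not show that they are absent. By sequence, 2 probes for different Hox genes shared at most a run of 11 of 60 bases over 857 probe pairs. This sets probes against each other and not against the transcripts of other members, so hybridisation between members was not tested.

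A difference of 2-fold or more (1 on the log2 scale) served as the rule of size, and the errors given are those of the scanner's error model for both spots, which covers measurement on the array and not mice. Where the dimmer array was not well above background, the difference is given as a bound, that is, at least the value given. If the dim probe read above the lowest signal flagged as well above background, the value is the plain difference and no strict limit. In Aspp1-/- against WT, 0 of 15 members detected on either array were past 2-fold, against 2.54% of all 21531 genes and transcripts measured. With detection required on both arrays it was 0 of 14, against 0.844%. In p53-/- against WT, 0 of 15 were past it, against 4.78%, and 0 of 14 with both arrays detected, against 1.45%. In Aspp1-/-p53-/- against WT, 3 of 17 were past it (Hoxb7, Hoxb8 and Hoxd12, all higher), against 5.64%, and 1 of 15 (Hoxb8) with both detected, against 2.47%.

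The other 2 comparisons take Aspp1-/-p53-/- against each single loss and share its array with the last one. Against p53-/-, the same 3 of 17 members were past 2-fold, all higher, against 5.6% of all, and 0 of 14 with both detected, against 1.66%. Against Aspp1-/-, these 3 of 17 were again past it and higher, against 4.87%, and 0 of 14 with both detected, against 1.75%. Hoxb7 and Hoxd12 entered all these counts only through their detection on the Aspp1-/-p53-/- array. Hoxb8 did so against each single loss. A bound with that array as the bright side can only be higher or 0, so the shared direction is no support. None of these calls was kept under the normexp background correction, in which 0 Hox genes reached 2-fold in each comparison. That correction adds an offset of 50 to every signal, of the same order as the signal of these dim probes, and by construction draws their differences towards 0.

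Hoxa2, a gene of hindbrain and branchial arch patterning, read 235, 271, 194 and 152. Both arrays without p53 were below both arrays with it. After scaling, Hoxa2 was lower by 0.31 ± 0.21 (log2 ± scanner error) in p53-/- and by 0.53 ± 0.21 in Aspp1-/-p53-/-, both against WT, and by 0.68 ± 0.21, or 1.60-fold, in Aspp1-/-p53-/- against Aspp1-/-. With p53 present, Aspp1 loss gave 0.15 ± 0.21, within the scanner error. These differences stayed under 2-fold, and with the normexp correction the values against WT were −0.19 in p53-/- and −0.35 in Aspp1-/-p53-/-.

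Some markers of stromal cells were lowest on the same array as Hoxa2. Cxcl12, a chemokine of marrow stroma, read 178, 110, 71.4 and 36.5, and Vcam1, an adhesion molecule of stroma and endothelium, read 176, 108, 112 and 39.9. In Aspp1-/-p53-/- against WT they were lower by 2.19 and 2.04 (log2). Of the 8 stromal and endothelial markers listed, 6 were detected. Past 2-fold against WT were 1 in p53-/- and 2 in Aspp1-/-p53-/-, against 4.78% and 5.64% of all genes and transcripts. In Aspp1-/-p53-/- 4 of these 6 were below WT and 2 above it, Pdgfrb by 0.07 and Pecam1 by 0.06, and in p53-/- these 2 were above WT by 0.20 and 0.15. The defining markers Col1a1 and Cdh5 were not well above background on any array. The list's summed signal, relative to each array's 75th percentile, was 8.49, 7.77, 8.19 and 7.01. Granulocyte markers were also lower in Aspp1-/-p53-/-: 6 of 8 were past 2-fold against WT, against 5.64% of all genes and transcripts, with a median of −1.63. Mpo and Elane were not past it, at −0.04 and −0.36. The summed signal of the granulocyte list was 462, 404, 446 and 336. Of B cell, T cell and erythroid markers, 5 of 6, 1 of 3 and 2 of 3 were detected. In any comparison 0 were past 2-fold, against 2.54% to 5.64% of all genes and transcripts by comparison. Pax5, Cd3d and Cd3g were not well above background on any array. Their part in the values of Hoxa2 and of the other members on the Aspp1-/-p53-/- array was not tested, and in sorted bulk RNA fewer cells of a type and less RNA per cell cannot be told apart.

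From Hoxa3 onwards HoxA differences from WT were above 0, except for Hoxa10 in p53-/-. Hoxa3, needed for thymus and parathyroid formation, read 1512, 1849, 1787 and 1614, and every mutant array was above WT by 0.19 to 0.23 (log2), about the scanner error of a difference, which ran from 0.20 to 0.31 against WT among members detected everywhere. Hoxa4 read 42.1, 51.4, 56.7 and 46.6, with differences from WT of 0.23, 0.40 and 0.25. The first of these was 0.03 with the normexp correction.

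Hoxa5, known for lung and axial patterning, read 516, 574, 606 and 587, with WT the lowest and differences from WT of 0.10, 0.20 and 0.28. Hoxa6 read 75.2, 108, 99.1 and 100.4, and its differences from WT of 0.46 ± 0.23, 0.37 ± 0.24 and 0.52 ± 0.24 were each above the scanner error. With the normexp correction its Aspp1-/- difference was 0.24, about that error. Hoxa7, which with Hoxa9 is a target of MLL fusion proteins in leukaemia, read 8659, 9625, 9173 and 8732 and differed from WT by 0.05 to 0.11. These 3 genes share a direction, none came near 2-fold, and with 1 array per genotype their size cannot be set against mice.

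Hoxa9 drives self-renewal of stem and progenitor cells and cooperates with Meis1 in myeloid leukaemia. Its brighter probe read 749, 849, 968 and 976, and its other probe read 773, 837, 936 and 840. WT was the lowest array on both. The brighter probe differed from WT by 0.12, 0.34 and 0.48 ± 0.20 (the error of the last), and the other by 0.06, 0.25 and 0.22, so the 2 probes share the sign and differ in the size for Aspp1-/-p53-/-. Hoxa10, active in early progenitors and myeloid cells, read 300.4, 326, 302 and 328, and differed from WT by 0.06, −0.02 and 0.23. Across the 8 detected HoxA genes, 8, 6 and 7 were above WT on the 3 mutant arrays in order, with medians of 0.13, 0.21 and 0.24.

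**Figure D2:**
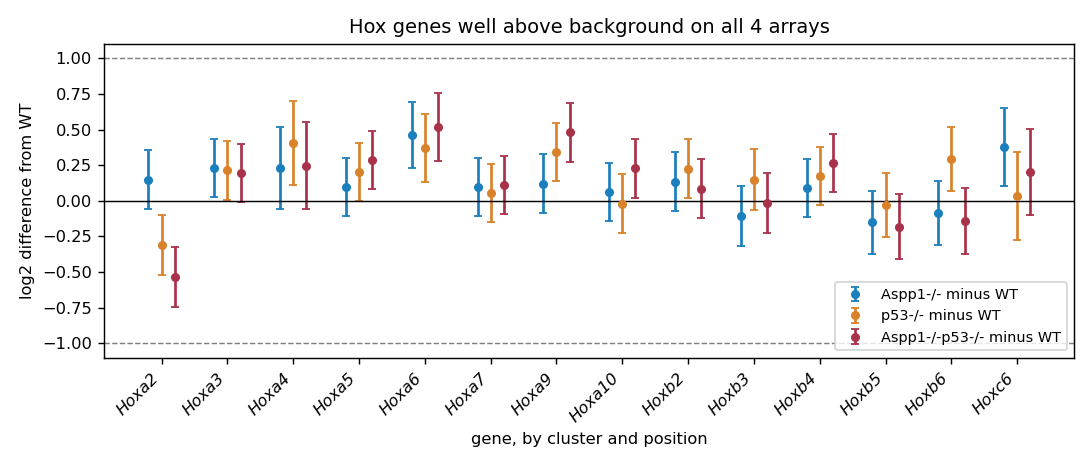
Log2 difference from WT (vertical axis, after 75th percentile scaling) of the 14 Hox genes detected on all arrays, ordered by cluster and position, with 1 point per mutant array and bars for the scanner error of both spots. Dashed lines mark 2-fold. No point passes either line, Hoxa2 is the lowest at −0.31 in p53-/- and −0.53 in Aspp1-/-p53-/-, and the rest lie between −0.18 and 0.52.

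The 5 HoxB genes detected on all arrays, Hoxb2 to Hoxb6, were under 2-fold in every comparison. Hoxb2, a hindbrain gene also expressed in progenitors, read 224, 256, 268 and 223. Hoxb3 had 2 detected probes, which read 166, 160.4, 187 and 153 and 107, 110.1, 87.2 and 72.6. Its probes disagreed: in Aspp1-/-p53-/- against WT the first gave −0.01 and the second −0.46, and in p53-/- they gave 0.15 and −0.32. Hoxb4, whose forced expression expands haematopoietic stem cells, read 1605, 1779, 1846 and 1801, with WT the lowest array and differences from WT of 0.09, 0.17 and 0.26.

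Hoxb5, a marker of long-term stem cells in mouse marrow, read 101, 95.1, 101 and 83.6, and differed from WT by −0.15, −0.03 and −0.18, all within the scanner error. Hoxb6, expressed in early progenitors, read 107, 105, 134 and 90.5. It was highest in p53-/- and lowest in Aspp1-/-p53-/-, a difference of −0.44 between those 2 arrays. Hoxc6 was the 1 HoxC gene detected, at 39.5, 53.4, 41.2 and 42.5, and its largest difference from WT was 0.38 ± 0.27 in Aspp1-/-, which fell to 0.09 with the normexp correction. In Aspp1-/-p53-/- against Aspp1-/- Hoxc6 was at −0.17, and at 0.13 with that correction. Over members detected on both arrays the median difference from WT was 0.11, 0.19 and 0.20 on the 3 mutant arrays in order, where all genes had 0.02, 0.01 and 0.02. Members above WT numbered 11 of 14, 11 of 14 and 11 of 15, against 54.2%, 53.6% and 55.1% of all genes. For Aspp1-/-p53-/- the median was 0.02 against p53-/- and 0.02 against Aspp1-/-. The WT array enters all of the first 3, so these medians are not independent of each other.

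Hoxb7, Hoxb8 and Hoxd12 were higher on the Aspp1-/-p53-/- array than on any other. Elsewhere Hoxb7 and Hoxd12 were below the lowest signal flagged as well above background, and Hoxb8 was near it in WT and Aspp1-/- and below it in p53-/-. Hoxb7, a gene of trunk patterning, read 4.76, 4.96, 6.84 and 74.6 and was well above background only on the last array. Its excess there was at least 2.11 over WT, with bounds of 1.71 over p53-/- and 2.04 over Aspp1-/-. Hoxb8, whose sustained expression blocks maturation of myeloid progenitors in culture, read 22.0, 21.2, 5.96 and 55.4. It was well above background in WT and in Aspp1-/-p53-/-, and was 1.43 ± 0.37 higher in the latter. The bound over p53-/- was 1.28. The value of 1.54 over Aspp1-/- is the plain difference and no strict limit. Hoxd12, known from limb patterning, read 4.14, 4.34, 5.54 and 54.2, and the bounds were 1.65 over WT, 1.25 over p53-/- and 1.58 over Aspp1-/-. With the normexp correction the values against WT were 0.85, 0.60 and 0.71 for Hoxb7, Hoxb8 and Hoxd12. Those of Hoxb7 and Hoxd12 are again bounds, which by their rule cannot fall below 0, so only that of Hoxb8 could have changed sign.

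Each of these 3 calls rests on 1 spot of 1 probe per array, in the low signal range, and no other probe of the gene was there to check it. Detection on the Aspp1-/-p53-/- array alone was found for 2 of 38 Hox genes (5.26%), Hoxb7 and Hoxd12, and for 243 of 22221 named genes (1.09%). Detection on 1 other array alone was found for 298 genes on WT, 220 on Aspp1-/- and 303 on p53-/-, and for 0 Hox genes. Hoxb7 and Hoxb8 lie side by side in HoxB and were both highest on this array. On the outer sides of this pair, Hoxb6 was lowest in Aspp1-/-p53-/- and Hoxb9 was not detected on any array. Neither gene beside Hoxd12, Hoxd11 or Hoxd13, was detected on any array.

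**Figure D3:**
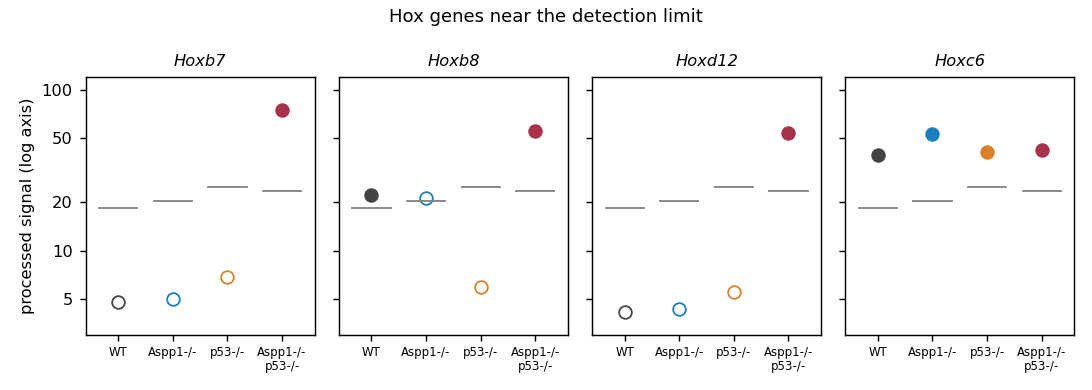
Processed signal (log axis, before scaling) of Hoxb7, Hoxb8, Hoxd12 and, for comparison, Hoxc6 on the 4 arrays. Filled circles are well above background, open circles are not, and grey lines mark the lowest signal so flagged on each array (18.5, 20.2, 24.9 and 23.6). Hoxb7, Hoxb8 and Hoxd12 reach 74.6, 55.4 and 54.2 on the Aspp1-/-p53-/- array, while Hoxc6 stays between 39.5 and 53.4.

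A model with 1 term for Aspp1 loss and 1 for p53 loss was fitted over all 4 arrays with limma, which leaves 1 residual degree of freedom. It takes any effect of losing both genes beyond the sum of the single losses as error. After Benjamini-Hochberg adjustment it called 0 of 22773 genes and transcripts (0%) for either loss and 0 of 17 Hox genes. The targeted genes Ppp1r13b and Trp53 were thus not called either, so the lack of calls cannot show that Hox genes were unchanged. At an unadjusted p under 0.05, limma had 0 of 17 Hox genes for Aspp1 loss, against 4.69% of all, and 1 of 17 for p53 loss, against 7.5%. This was Hoxa9, with a p53 effect of 0.35 (SE 0.055, adjusted p = 0.6578 in limma). Hoxa2 had a p53 effect of −0.50 (SE 0.14, adjusted p = 0.6579 in limma).

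Probes that lie inside the clusters but are not named for a Hox gene were also measured. Between the outermost Hox probes (mm9), HoxA on chromosome 6 held 6 other probes, of which 4 were detected on every array. HoxB on chromosome 11 held 22 with 10, HoxC on chromosome 15 held 6 with 1, and HoxD on chromosome 2 held 5 with 1. The file describes 1 of the HoxA probes (mm9 chr6:52149150-52149208, minus strand) as a transcript of Hoxa3, although it is not named so. Its nearest Hox probe is that of Hoxa5, 2.84 kb away, and it lies on the strand of the HoxA genes. Read-through from a neighbouring Hox gene was not tested for it. This probe read 49.5, 72.4, 81.5 and 74.4, above WT by 0.49, 0.69 and 0.69 (scanner error near 0.26), and by 0.21, 0.33 and 0.39 with the normexp correction. The probe named Hoxa3 differed from WT by 0.19 to 0.23, so the probes share the sign and differ in size. Among those detected on every array, the largest difference in Aspp1-/-p53-/- against WT was at a lincRNA that the array design places at mm9 chr11:96175764-96176029, forward strand, a span of 266 bases between the Hoxb5 and Hoxb4 probes and on the strand of the HoxB genes. It was picked out after its values were seen. Its 3 probes do not overlap and are shown because all 3 moved together. Also shown is the probe named for Hoxaas3, a long non-coding RNA of HoxA (mm9 chr6:52160572-52160631, minus strand). They are printed 5′ to 3′ as in the array files, in lower case throughout, with no part marked.
HoxB lincRNA probe 1: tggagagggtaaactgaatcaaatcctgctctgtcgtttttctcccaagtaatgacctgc
HoxB lincRNA probe 2: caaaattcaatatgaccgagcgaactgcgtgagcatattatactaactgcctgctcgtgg
HoxB lincRNA probe 3: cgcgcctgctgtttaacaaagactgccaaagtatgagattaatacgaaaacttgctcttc
Hoxaas3 probe: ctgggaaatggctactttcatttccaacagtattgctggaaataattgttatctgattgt

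Probe 1 of the lincRNA (chr11:96175777-96175836) read 170, 236, 294 and 335. Probe 2 (chr11:96175838-96175897) read 134, 179, 225 and 218, and probe 3 (chr11:96175970-96176029) read 329, 432, 501 and 542. WT was the lowest array and Aspp1-/- the next lowest on all 3 probes. Against WT, the Aspp1-/- array was higher by 0.41, 0.36 and 0.34, the p53-/- array by 0.76, 0.72 and 0.58, and the Aspp1-/-p53-/- array by 1.08, 0.80 and 0.82, each with a scanner error near 0.21. The normexp correction gave 0.82, 0.52 and 0.68 for the last. The flanking genes on the same arrays, Hoxb5 and Hoxb4, were at −0.18 and 0.26 in Aspp1-/-p53-/- against WT. Another forward-strand lincRNA of the array design also lies between the Hoxb5 and Hoxb4 probes. Its probe detected on every array read 44.6, 77.5, 68.9 and 55.1. That probe was above WT by 0.74, 0.60 and 0.40 (scanner error 0.27 to 0.29), so higher values than WT were not particular to the lincRNA shown. Read-through from a neighbouring Hox gene on the same strand was not tested for either lincRNA.

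The probe named for Hoxaas3 read 493, 491, 682 and 864, and differed from WT by −0.06, 0.44 and 0.91 ± 0.20. Both arrays without p53 were above both arrays with it, the opposite order to Hoxa2 in the same cluster. The normexp correction gave 0.82 for the last. In RefSeq's gene table (GRCm38.p6) the Hoxaas3 gene overlaps Hoxa5 and Hoxa6. The probe's strand is that of the HoxA genes, whereas the probes of the antisense transcripts Hoxaas2 and Hoxa11os lie on the opposite strand. Its values are thus not shown to be of an antisense transcript. A transcript read through from a neighbouring Hox gene and Hoxaas3 cannot be told apart with this probe. Of a list of 24 non-coding transcripts and miRNAs, 4 matched the array's gene names as spelled and 2 of these were detected. The other detected one, Hoxa11os, read 28.9, 50.4, 40.6 and 33.2, with 0.75 ± 0.34 in Aspp1-/- against WT, or 0.23 with the normexp correction. Hotair, a long non-coding RNA of HoxC, is spelled in capitals on the array and had 5 probes, of which 4 were not well above background on any array. The remaining probe was well above background on every array but Aspp1-/-p53-/- and read 39.3, 25.7, 34.7 and 16.8.

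**Figure D4:**
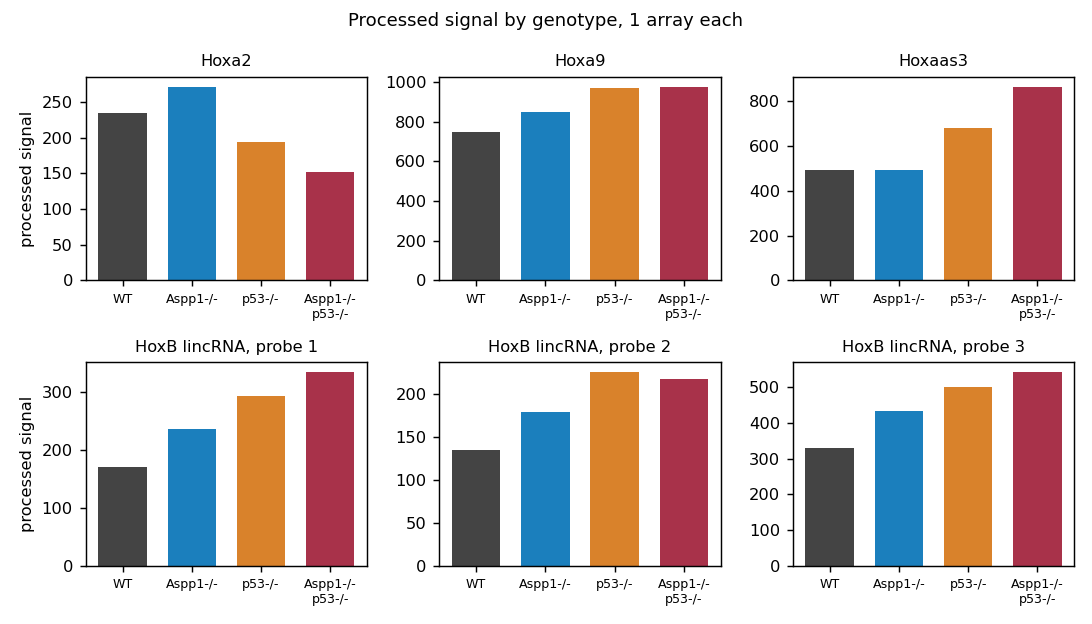
Processed signal (vertical axes from 0, before scaling, a separate scale per panel) of Hoxa2, Hoxa9 (brighter probe), the probe named for Hoxaas3 and the 3 probes of the HoxB lincRNA, with 1 bar per array. Hoxa2 goes from 235 in WT to 152 in Aspp1-/-p53-/-, while Hoxa9 goes from 749 to 976, Hoxaas3 goes from 493 to 864 and lincRNA probe 1 from 170 to 335.

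Antisense transcripts matched to RefSeq names through the file's own descriptions were under 2-fold from WT. Hoxb5os read 454, 463, 504 and 329 and was 0.37 lower in Aspp1-/-p53-/- than in WT. Haglr, which lies in HoxD, read 198, 202, 184 and 160.1, so that transcription was measured inside a cluster whose coding genes were almost all undetected. Hoxaas2 read 50.7, 62.2, 62.1 and 64.9, and was above WT by 0.24, 0.26 and 0.45, where the scanner error was near 0.25. Its probe overlaps that of Hoxa3 on the opposite strand, and both had WT as the lowest array.

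Partners and regulators of Hox proteins were taken as lists. Over all genes and transcripts 2.54% to 5.64% were past 2-fold by comparison, so a count of 0 in a short list says little about its members. Of 9 TALE cofactors, 8 were detected on some array and 0 were past 2-fold in any comparison. Meis1 read 26141, 30122, 29368 and 26812, with differences from WT of 0.15, 0.14 and 0.13. Other members were Pbx4 (0.25 in Aspp1-/-p53-/- against WT), Pbxip1 (−0.22), Pbx3 (−0.18), Meis3 (−0.14) and Pbx2 (0.13). Pknox2, detected only on the Aspp1-/-p53-/- array, had a bound of 0.88 there against WT. Of 24 activators, 22 were detected and 0 were past 2-fold. Cdx1, a caudal-type homeobox factor detected only on the p53-/- array, had a bound of 0.99 there against WT. Among activators detected on all arrays, Kdm6b, a demethylase that removes the Polycomb mark, was the furthest from WT, at −0.40 in p53-/- and −0.70 in Aspp1-/-p53-/-, with signals of 6598, 7116, 5095 and 3790 in order. Kmt2a, the MLL methyltransferase, was at −0.08 and Men1, menin, at −0.02 in Aspp1-/-p53-/- against WT. Rarb (−0.38), Ash2l (0.30), Rara (−0.29) and Kdm6a (−0.25) were the other named members.

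All 26 Polycomb genes were detected on every array and 0 were past 2-fold. Ezh2, the methyltransferase of Polycomb complex PRC2, was at 0.14, 0.04 and 0.06 from WT, and Bmi1, a PRC1 subunit needed for stem cell self-renewal, at 0.08, 0.13 and 0.11. The widest were Pcgf1 (0.39 in Aspp1-/-p53-/-), Cbx8 (0.36), Asxl1 (0.35), Cbx7 (−0.35) and Mtf2 (0.31), with Pcgf2 at 0.27 in p53-/-. Genes that flank the clusters were likewise under 2-fold, 23 of 28 detected. Smug1, a DNA repair glycosylase beside HoxC, was at 0.30, 0.48 and 0.63 from WT, and Snx11 beside HoxB at −0.52, 0.10 and 0.25. Others were Calcoco1 (−0.32 in Aspp1-/-p53-/-), Nfe2 (−0.28), and in Aspp1-/- Mtx2 (0.28) and Nfe2l1 (0.24).

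Homeobox genes outside the clusters gave 18 detected of 28. Past 2-fold were Gsx2, detected only on the Aspp1-/-p53-/- array (a bound of 1.45 against WT), and Vax1, detected only on the p53-/- array (a bound of 1.93). Both are single dim probes like Hoxb7, and each was 1 of 17 members measured, against 5.64% and 4.78% of all genes and transcripts. Among members detected everywhere, Nkx2-3 (−0.64), Hlx (−0.57), Hopx (−0.52), Zeb2 (−0.31) and Homez (0.30) were the furthest in Aspp1-/-p53-/- against WT, and Msx1 reached 0.49 in p53-/-. Over genes detected on all arrays, medians in Aspp1-/-p53-/- against WT were 0.20 for the 14 Hox genes, 0.13 for TALE cofactors, −0.02 for activators, 0.06 for Polycomb genes, −0.02 for flanking genes and −0.00 for other homeobox genes. These lists were chosen with results known, and their medians are descriptions of 4 arrays.

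**Figure D5:**
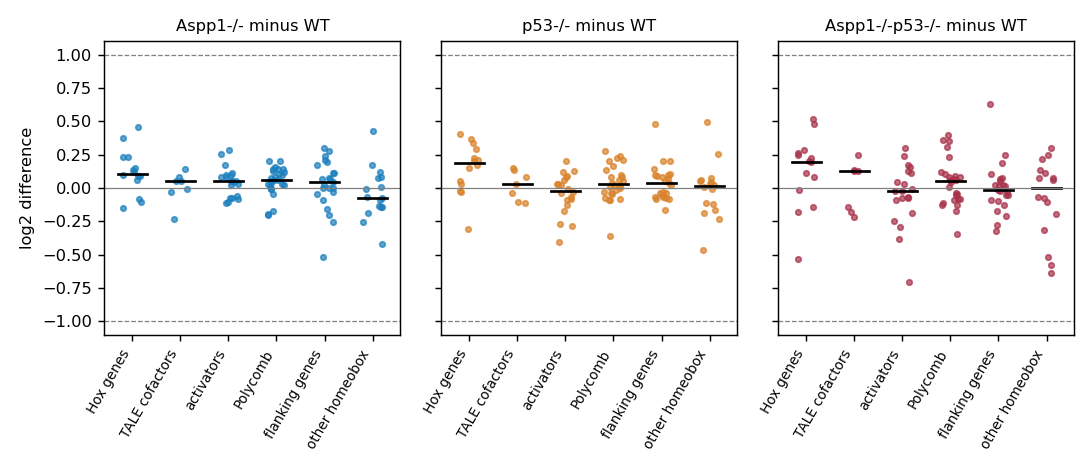
Log2 difference from WT of genes detected on all 4 arrays, in a panel per mutant genotype, by list (horizontal axis), with 1 point per gene, black bars at list medians and dashed lines at 2-fold. No point is past a dashed line, and the Hox median lies at 0.11, 0.19 and 0.20 in the 3 panels.

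Promoter sequence was available in RefSeq's table (GRCm38.p6) for 22 of the 38 genes, in 24 windows of the 250 bases before a start site. Hox promoters held a median of 12.5 CG dinucleotides (2 to 35), against 6 over 32851 promoter windows. CG content did not separate detected from undetected members: the median was 14 in 9 windows of genes detected on all arrays and 13 in 13 windows of genes detected on none. Hoxa9 and Hoxb4, both detected everywhere and both linked to stem cell self-renewal, are printed as the lowest and the median CG number of the windows of genes detected on all arrays, in the gene's direction from 5′ to 3′ with each CG in capitals. The Hoxa9 window is chr6:52227371-52227620 (minus strand, 3 CG) and the Hoxb4 window chr11:96318017-96318266 (plus strand, 14 CG).
Hoxa9 promoter: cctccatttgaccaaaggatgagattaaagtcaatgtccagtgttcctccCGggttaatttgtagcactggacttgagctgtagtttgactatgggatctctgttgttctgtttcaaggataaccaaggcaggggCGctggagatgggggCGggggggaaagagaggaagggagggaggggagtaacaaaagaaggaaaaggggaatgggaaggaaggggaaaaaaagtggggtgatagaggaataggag
Hoxb4 promoter: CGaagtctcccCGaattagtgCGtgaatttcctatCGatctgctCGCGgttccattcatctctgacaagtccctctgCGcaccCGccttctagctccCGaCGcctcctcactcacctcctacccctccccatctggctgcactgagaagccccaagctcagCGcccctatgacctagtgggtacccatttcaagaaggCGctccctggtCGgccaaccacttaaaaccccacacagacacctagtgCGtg

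Motifs were searched on both strands of these windows, and matches may overlap. The CCAAT box (CCAAT) was in 14 of 24 Hox windows (58.3%) against 33.8% of all windows, and the GC box (GGGCGG) in 10 (41.7%) against 32.7%. The TATA box (TATAAA) was in 4 (16.7%) against 12.4%, and the site bound by Hox with Pbx (TGATNNAT) in 4 (16.7%) against 7.68%. The p53 half-site was in 3 (12.5%), those of Hoxa11, Hoxd10 and Hoxd4, against 7.13%. None of these 3 genes was detected on any array. A match in such a window is a run of letters and not evidence of binding.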

How the data were processed

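The 4 arrays are Agilent design 028005 (1 colour, Cy3), 1 per genotype, with groups taken from the labels' genotypes and titles. Deposited processed intensity was made, per the file headers, by Agilent Feature Extraction 10.7.3.1, with background subtracted and no scaling between arrays. Probe positions are mm9, per the file headers. Flags (other values of 0 or 1) came with the deposited files. The authors' value table holds log2 values centred per probe. Its differences between arrays had r = 1 with the scanner files over 26465 probes, its direction and scale were read from the values, and which constant was removed per array is not given in the sources. Its column medians were −0.0661, −0.0422, 0.0267 and 0.0478 for WT, Aspp1-/-, p53-/- and Aspp1-/-p53-/-.

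Control and outlier-flagged spots (120 to 172 per array) were left out and 0 spots were saturated. Spots of a probe were averaged, which left 55675 probes, and log2 intensity was set relative to each array's 75th percentile. A gene was represented by its brightest detected probe. Names came from RefSeq by accession for 26760 probes, by symbol for 3818 and by older symbol for 639, and 24458 kept the file's name. A bound sets the bright value against either the lowest signal flagged as well above background on the dim array or, if that is higher, what the dim probe itself read, and then it equals the plain difference and is no strict limit. The number of arrays, 1 per genotype, limits the precision. The additive fit used limma 3.58.1 in R 4.3.3 and was tested on simulated data. Other steps used Python 3.11.15 with pandas 2.3.3.

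Members, lists, the 2-fold rule and the alternatives were chosen with earlier results of these data known. The naming rule took the 38 Hox genes described and for up to 6 members of each list with the largest difference from WT among those detected everywhere, plus Meis1, Kmt2a, Men1, Bmi1 and Ezh2. Of the 39 genes matched by name, 1 is not reported here, nor is 1 gene each of the TALE and erythroid lists. They stay in the fits and percentages over all genes. The alternatives were normexp with an offset of 50, the percentile over detected probes, quantile normalization, the authors' value table, the mean of a gene's probes, detection on all arrays, 1.5-fold, and other detection flags.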

Additional observations from a re-analysis of the deposited data

How the results depend on the processing

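No paired analysis was possible because each genotype has 1 array, and leaving one out removes its genotype. The number of Hox genes past 2-fold was 0 under normexp in all 3 comparisons of Aspp1-/-p53-/-, where the offset compresses dim signals and the rule for bounds was kept. Over all genes, normexp still left 2.03% (p53-/-) and 2.30% (Aspp1-/-p53-/-) past 2-fold against WT. With detection required on all arrays, which drops Hoxb7, Hoxb8 and Hoxd12, the number was 0 of 14 in each comparison of Aspp1-/-p53-/-. Of all genes 2.26% were past it against WT, 1.43% against p53-/- and 1.58% against Aspp1-/-. The authors' value table, which sets no bound, gave 1 of 15 in p53-/- against WT, Hoxb8 at −1.91, against 6.89% of all genes. A limit of 1.5-fold added Hoxa2 in Aspp1-/-p53-/- against Aspp1-/- (4 genes in place of 3) and no Hox gene elsewhere. Among list members, normexp gave 0 past 2-fold in p53-/- against WT and in the 3 comparisons of Aspp1-/-p53-/-, where Gsx2 and Vax1 (1 or 2 genes) had passed. The mean of a gene's probes gave 1 (Zhx3, 1.01) in Aspp1-/- against WT and 2 (Phc3, 1.14, and Gsx2) in Aspp1-/-p53-/- against WT. The authors' value table also put Cdx1 past 2-fold for p53-/- against WT (1.44) and for the array lacking both genes against p53-/- (−1.09), and Pknox2 in the 3 comparisons of Aspp1-/-p53-/- (2.61 to 3.00). The percentile over detected probes put Hoxaas3 just past 2-fold in Aspp1-/-p53-/- against Aspp1-/-. Hox genes with a positive and significant signal numbered 22, 17, 18 and 19, against 15, 14, 14 and 17 well above background. No result changed sign among those past 2-fold under any alternative run. A bound cannot change sign by its rule, so only the authors' value table, which sets none, could have shown it for Hoxb7 and Hoxd12. The limma fit made 0 calls under each of its 3 alternatives, with Hoxa9 at an unadjusted p under 0.05 for p53 loss in all of them. Normexp added Hoxa5 to it (2 of 17, all genes 8.25%). Detection on all arrays had Hoxa2, Hoxa5 and Hoxa9 (3 of 14, all genes 12.3%), and Hoxc6 for Aspp1 loss (1 of 14, all genes 8.62%). The lincRNA and Hoxaas3 were put through 4 alternatives chosen after seeing the data, and 4 of 20 values moved by more than their scanner error under normexp and 0 under the others. The flag's limit, a signal near 20, bounds what can be said of the dim members.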
